A study of Bos taurus with 27 samples.

Results

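The genes described here were 3 β subunits of the sodium pump (ATP1B1, ATP1B2 and ATP1B3) and 5 aquaporins (AQP3, AQP7, AQP8, AQP9 and AQP11), chosen by name as genes of blastocyst cavitation. The choice was made with earlier results of these data known. All 8 were present among the 32637 genes of the count table, and 3 of them, ATP1B3, AQP3 and AQP11, were among the 12310 genes retained at 1 CPM or more in at least 12 pools. CPM is the number of reads of a gene divided by all reads counted in that pool, times 1000000. The samples were 27 pools of 2 in vitro produced bovine (Bos taurus) blastocysts, all scored as expanding or expanded and of the best quality grade, collected on day 8 of culture. The oocytes had been matured in follicular fluid taken before ovulation, from follicles of either greater or lesser maturity, and fertilised with semen of a single bull. The sample labels named neither the follicular fluid nor the fertilisation replicate of a pool, so no treatment was compared here and the 27 pools formed 1 group. Each pool held RNA of whole blastocysts, so fewer cells of a type and less RNA per cell cannot be told apart.

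A blastocyst forms its fluid-filled cavity when the trophectoderm, its outer epithelium, moves sodium inward and water follows. The sodium pump (Na+/K+-ATPase) sits in the basolateral membrane of these cells and is built of a catalytic α subunit and a β subunit, which is needed for assembly of the pump and its delivery to the membrane, while FXYD proteins bind the pump and tune its activity. Aquaporins let water, and in the aquaglyceroporin class also glycerol, cross membranes, and tight junctions seal the epithelium so that the fluid is kept inside.

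The pools were sequenced to total counts of 10517606 to 44253564 (median 22293594), so 1 CPM stood for 10.5 to 44.3 reads and 3 reads stood for 0.0678 to 0.285 CPM. Over the 351 pairs of pools, the lowest chi-square per degree of freedom between counts was 23.9, so no pair differed by as little as sampling noise. The blastocyst label was checked on lineage markers: all 7 trophectoderm markers were retained (summed level 338 to 1124 CPM), as were 4 of 5 epiblast markers (233 to 853 CPM, with FGF4 under 1 CPM in every pool) and 4 of 6 hypoblast markers (59.1 to 405 CPM, with SOX17 under 1 CPM in every pool). GATA4, the other hypoblast marker not retained, reached 1 CPM in 10 pools. The hypoblast sum had a median of 283 CPM and GATA6 alone one of 211 CPM. Markers of other cells were also counted, with 8 of 10 leukocyte markers retained (22.0 to 196 CPM, PTPRC at 1 CPM or more in all 27 pools) and 4 of 8 cumulus cell markers retained (12.7 to 44.9 CPM). The leukocyte sum had a median of 87.4 CPM and S100A12 alone one of 53.6 CPM, while CD3E and CSF1R were not retained.

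The 8 genes fell into 2 sets. ATP1B3, AQP3 and AQP11 were at 1 CPM or more in all 27 pools, and ATP1B1, ATP1B2, AQP7, AQP8 and AQP9 had median levels under 1 CPM. The libraries were made from the 3′ ends of transcripts, so CPM was not divided by length, and an order between genes also depends on how well each 3′ end is annotated, which was not tested.

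ATP1B3 (chromosome 1, 127050089 to 127096874 on ARS-UCD2.0) encodes the β3 subunit. Its level was 2706 CPM in the lowest pool, 3634 CPM at the median and 5328 CPM in the highest. These levels placed it at rank 21 of the 12310 retained genes by median CPM, and the highest pool held 1.97 times the level of the lowest. Of all reads of the 4 β-subunit genes in the table (ATP1B1 to ATP1B4), ATP1B3 held 99.94% to 100% in every pool (median 99.98%). This share takes the counts as given, and that of ATP1B1 is uncertain because the gene overlaps another, NME7.

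AQP3 (chromosome 8, 75194697 to 75200652), an aquaglyceroporin, was at 92.3 CPM in the lowest pool, 158 CPM at the median and 249 CPM in the highest. AQP11 (chromosome 29, 18378222 to 18393257), an unorthodox aquaporin found mainly in membranes inside the cell, was at 13.7, 50.7 and 104 CPM. AQP3 was above AQP11 in 27 of 27 pools although their ranges overlapped, with a ratio within a pool of 1.16 to 8.01 (median 3.28). Of the reads of the 13 aquaporin genes in the table (MIP included), AQP3 held 53.4% to 86.8% (median 76.5%) and AQP11 held 10.8% to 46.1% (median 23.3%). ATP1B3 was in turn 10.9 to 48.5 times AQP3 within a pool (median 21.2), and their ranges did not overlap.

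**Figure D1:**
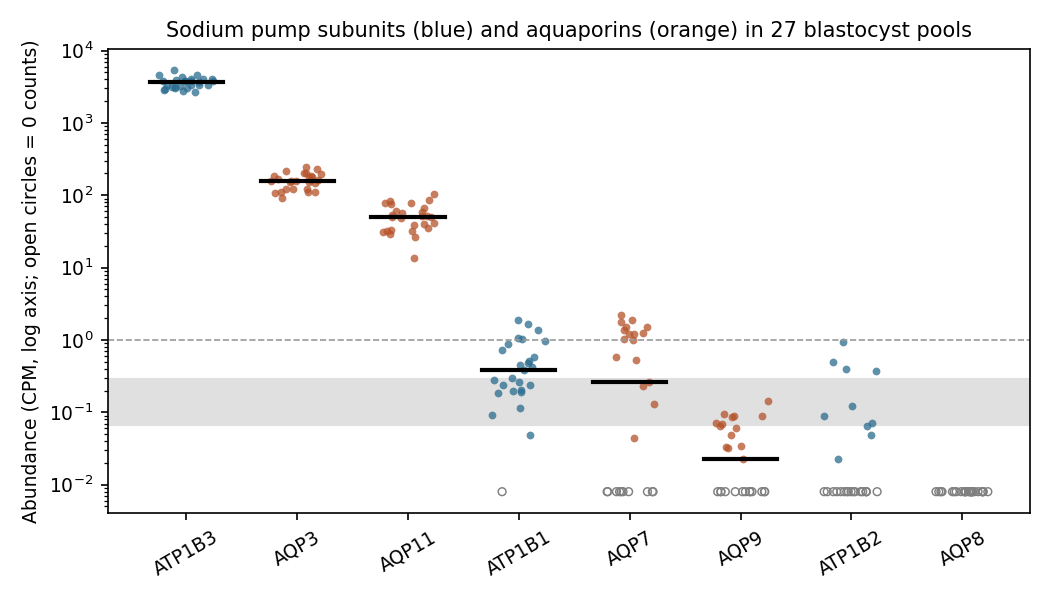
Abundance of all 8 members in CPM on a log axis, with 1 point for each of the 27 pools (sideways scatter only separates points), a bar at each median above 0, open circles for pools with 0 counts, a dashed line at 1 CPM and a grey band where 3 counts of a pool fall (0.0678 to 0.285 CPM). ATP1B3 ranged from 2706 to 5328 CPM, AQP3 from 92.3 to 249 CPM and AQP11 from 13.7 to 104 CPM, and the other 5 members had medians under 1 CPM.

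Pools 31 and 32 were the extremes of both ATP1B3 and AQP11, in opposite order. Pool 31 had the highest ATP1B3 (5328 CPM) and the lowest AQP11 (13.7 CPM), and pool 32 had the lowest ATP1B3 (2706 CPM) and the highest AQP11 (104 CPM). For AQP3 the extremes were other pools, with the lowest level in pool 24 and the highest in pool 13.

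Of the 3 retained members, ATP1B3 varied least among pools and AQP11 most. The biological coefficient of variation from edgeR, the spread between pools beyond counting error, was 19.8% for ATP1B3, 23.2% for AQP3 and 39.2% for AQP11, against a median of 33.7% over the retained genes. These values were at percentiles 15.1, 25.0 and 59.7 of the retained genes, which are genes of all levels. A comparison with genes of like abundance alone was not made. Counting error alone gave at most 0.489% for ATP1B3, 2.80% for AQP3 and 6.00% for AQP11 in any pool. Such counting error takes each read as independent, and amplified reads without molecular identifiers are not.

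The remaining 5 members were counted rarely or not at all. AQP7 (chromosome 8, 75135985 to 75154391), an aquaglyceroporin whose gene ends 40306 bases before AQP3 starts, had 392 reads over all pools, or 0.625 CPM (95% exact binomial interval 0.565 to 0.690). Its median was 0.261 CPM and its highest level 2.23 CPM (66 reads in pool 12). AQP7 had 0 reads in 10 pools, 1 to 3 reads in 2 pools and more than 3 reads in 15 pools, 10 of them at 1 CPM or more. The pools with 0 reads had total counts of 13895833 to 30679078, inside the range of the pools with more than 3 reads (10517606 to 44253564), and 0 reads there allow a level of up to 0.0978 to 0.216 CPM when the limit is set at 3 reads of each pool. Set against an equal share of reads in each pool, the AQP7 counts had a chi-square of 19.3 per degree of freedom, so they were spread more unevenly than counting alone gives.

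ATP1B1 (chromosome 16, 36759206 to 36784734), the β1 subunit of most epithelia, had 303 reads over all pools, or 0.483 CPM (95% exact binomial interval 0.430 to 0.541). It was at 0 in pool 31 alone, at a median of 0.384 CPM and at 1.88 CPM in pool 5, and 22 pools had more than 3 reads. The gene overlaps NME7, which had 5859 reads over all pools, and the strand setting of the counting is not given in the sources used here, so the 303 reads could not be assigned with certainty. Whether reads in the overlap were left uncounted is not known either. Its chi-square per degree of freedom was 10.9.

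ATP1B2 (chromosome 19, 27364739 to 27369048), the β2 subunit known from brain, had 51 reads over all pools, or 0.0814 CPM (95% exact binomial interval 0.0606 to 0.107). It was at 0 in 17 pools and above 3 reads in 4, and its highest level was 0.936 CPM (13 reads in pool 45). Its chi-square per degree of freedom was 9.99. AQP9 (chromosome 10, 52087959 to 52136099), an aquaglyceroporin best known from liver, had 18 reads, at most 2 in any pool, or 0.0287 CPM (95% exact binomial interval 0.0170 to 0.0454), and its chi-square of 1.12 per degree of freedom was close to that of counting alone. AQP8 (chromosome 25, 22801765 to 22811949), a water channel, had 0 reads in all 27 pools, which allows a level of up to 0.00479 CPM over all pools when the limit is set at 3 reads, or 0.00588 CPM by the 95% exact binomial interval.

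In the order of median levels, AQP11 stood above ATP1B1 in 27 of 27 pools, with ranges that did not overlap. Below that point the ranges of neighbours overlapped. ATP1B1 was above AQP7 in 12 pools and below it in 14, and AQP9 was above ATP1B2 in 8 and below it in 6. AQP7 was above AQP9 in 16 pools and below it in 3, and ATP1B2 was above AQP8 in 10 and below it in 0.

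**Figure D2:**
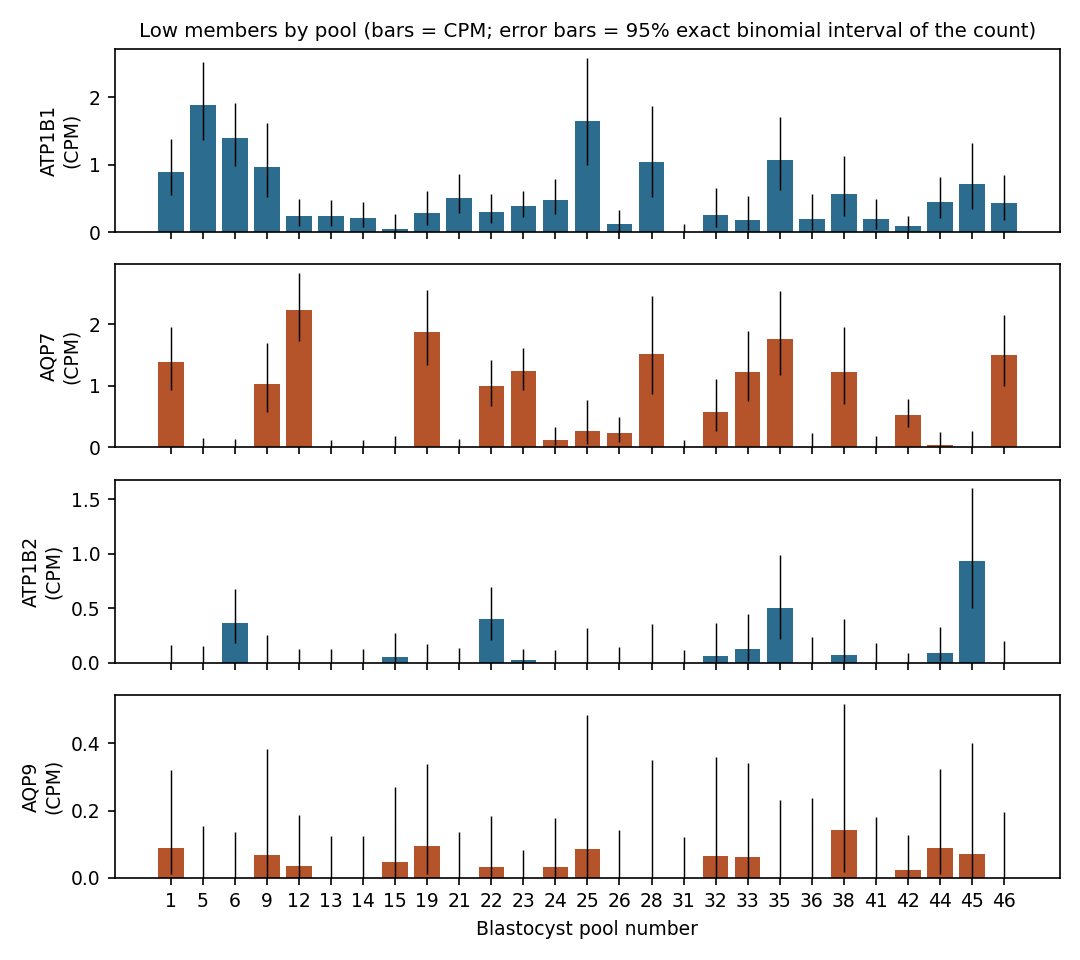
Levels of ATP1B1, AQP7, ATP1B2 and AQP9 in CPM (bars, with 95% exact binomial intervals of the count as lines) in each of the 27 pools, on separate axes for each gene. AQP7 reached 2.23 CPM in pool 12 and had 0 reads in 10 pools, ATP1B1 reached 1.88 CPM in pool 5, and no AQP9 bar stands for more than 2 reads.

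The other genes of the sodium pump were set beside the β subunits. Of 12 listed genes, 5 were retained and the remaining 7 reached 1 CPM in no pool. FXYD4, an FXYD protein known from kidney collecting duct and colon, was at 369 CPM in the lowest pool, 635 CPM at the median and 1160 CPM in the highest. Within a pool the CPM of ATP1B3 was 4.40 to 7.66 times that of FXYD4 (median 5.44), a ratio of 3′ reads and not of proteins.

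None of the other aquaporins was retained. Of 9 listed symbols, 7 were in the table: AQP1 and AQP2 had 0 reads, AQP4, AQP6 and AQP5 had 3, 11 and 33 reads, and AQP10 and MIP had 226 and 228 reads over all pools. The 17 genes of cell junctions were all retained, led by CLDN6 (1308 to 2195 CPM), a claudin of tight junctions, and F11R (306 to 660 CPM), a junctional adhesion molecule. Of 17 ion transport genes counted, 10 were retained, led by CLIC1 (477 to 1163 CPM), a chloride intracellular channel protein, and NHERF1 (100 to 281 CPM), a scaffold for membrane transporters. Of 8 genes of the apical cytoskeleton 7 were retained, led by the keratins KRT8 (10633 to 26270 CPM) and KRT18 (4545 to 12064 CPM).

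Whether the members varied together was asked over the 27 pools, in 9 relations between the 3 retained members and with other pump genes, of which 6, those between members and with FXYD4, are given here. Each relation is given as Pearson's r of log2(CPM + 1) and Spearman's rho with two-sided permutation p-values, and the adjusted p comes from limma fitted over all retained genes against the level of the member named first.

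ATP1B3 rose with FXYD4. Pearson's r was 0.866 (permutation p = 1e-05) and Spearman's rho was 0.861 (permutation p = 1e-05), the smallest p that 100000 permutations can give, and without the 2 pools farthest from the median of ATP1B3 (31 and 33) r was 0.863. The slope of FXYD4 was 1.50 ± 0.17 (SE) on the log2 scale for each doubling of ATP1B3 (limma adjusted p = 3.7e-06), and leaving out each pool in turn gave slopes of 1.44 to 1.61 with adjusted p of at most 6.9e-05.

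ATP1B3 and AQP11 were inversely related by Pearson's r alone. The r was -0.470 (permutation p = 0.0132) and rho was -0.309 (permutation p = 0.119), and the limma adjusted p was 0.0589. Without pools 31 and 33, the 2 farthest from the median of ATP1B3, r was -0.366, and without pool 31 alone it was -0.284 (permutation p = 0.16). The relation by r rested on pool 31.

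ATP1B3 and AQP3 gave r of -0.318 (permutation p = 0.105) and rho of -0.303 (permutation p = 0.127), with r of -0.292 without the 2 farthest pools and a limma adjusted p of 0.254. AQP3 and AQP11 gave r of 0.350 (permutation p = 0.0741) and rho of 0.292 (permutation p = 0.136), with r of 0.315 without the 2 farthest pools and a limma adjusted p of 0.323. The 2 abundant aquaporins were therefore not shown to vary together, nor either of them with ATP1B3.

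**Figure D3:**
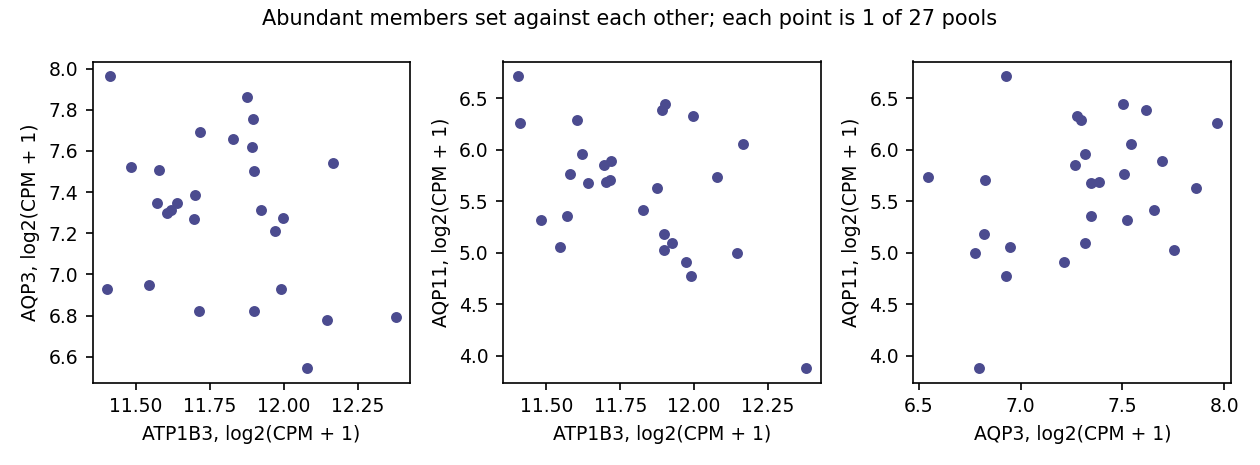
Levels of the retained members plotted against each other as log2(CPM + 1), with 1 point for each of the 27 pools. Pearson's r was -0.318 for ATP1B3 and AQP3, -0.470 for ATP1B3 and AQP11, and 0.350 for AQP3 and AQP11, and pool 31 is the point at the lower right of the middle panel.

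Neither aquaporin passed the adjusted test against FXYD4. AQP3 and FXYD4 gave r of -0.400 (permutation p = 0.0393) and rho of -0.465 (permutation p = 0.0155), with r of -0.321 without the 2 farthest pools and a limma adjusted p of 0.231. AQP11 and FXYD4 gave r of -0.446 (permutation p = 0.019) and rho of -0.359 (permutation p = 0.0671), and r fell to -0.154 without the 2 farthest pools, 32 and 31 (limma adjusted p = 0.127 with all pools).

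The listed genes of the pathway and of the cell types were then followed along the level of each retained member. With limma over all 12309 other retained genes, 1283 genes (10.4%) were associated with ATP1B3 at an adjusted p of at most 0.05, 3.44% higher and 6.98% lower with rising ATP1B3. Of the 68 listed genes tested, 15 passed, 11 higher and 4 lower. These 15 are named because they passed. The lists were chosen with earlier results of these data known, so the 2 shares do not test whether listed genes are associated more often.

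Among ion carriers and pump genes, SLC9A3, a sodium-hydrogen exchanger of apical epithelial membranes, rose with ATP1B3 by 2.83 ± 0.62 (SE) log2 units for each doubling (limma adjusted p = 0.00417), from 0.129 CPM in the lowest pool to 19.6 CPM in the highest. Of the 5 retained pump genes, FXYD4 rose and FXYD3 fell, FXYD3 by 1.88 ± 0.55 (limma adjusted p = 0.0268) at levels of 0 to 9.07 CPM. SLC9A3 was the 1 ion transport gene of 10 that passed.

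Of the 7 retained genes of the apical cytoskeleton, 4 rose and 0 fell. KRT19 rose by 1.99 ± 0.36 (limma adjusted p = 0.00091), KRT18 by 0.97 ± 0.18 (0.00091), KRT8 by 0.86 ± 0.17 (0.00213) and EZR, which encodes ezrin, by 0.59 ± 0.17 (0.0254). The median slope of the 7 was 0.59.

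Of the 17 junction genes, 2 rose and 2 fell. DSP, a plaque protein of desmosomes, rose by 1.69 ± 0.30 (limma adjusted p = 0.00067) and the claudin CLDN3 by 1.61 ± 0.48 (0.0283). F11R fell by 0.99 ± 0.14 (limma adjusted p = 7.6e-05) and CTNNA1, α-catenin of adherens junctions, by 0.59 ± 0.16 (0.0178). The members of this list thus moved in both directions.

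Of the lineage markers, 2 of 7 for trophectoderm, CDX2 (1.31 ± 0.29, limma adjusted p = 0.00432) and TFAP2A (1.25 ± 0.40, 0.0425), rose with ATP1B3, as did 1 of 4 for hypoblast, HNF4A (2.27 ± 0.55, 0.00896). Of the 4 epiblast markers tested, POU5F1 fell by 1.27 ± 0.33 (limma adjusted p = 0.0125). Each of these lists held slopes of both signs, with for example TFAP2C at -0.51 ± 0.21, GATA6 at -0.09 ± 0.55 and SALL4 at 0.63 ± 0.34, none of which passed. The median slope was 0.53 over the 7 trophectoderm, -0.01 over the 4 hypoblast and 0.12 over the 4 epiblast markers. None of 8 leukocyte, 4 cumulus or 2 interferon tau genes passed with limma or edgeR, and 1, 0 and 0 of them had an unadjusted limma p under 0.05, beside 26.2% of all genes; CD14, a leukocyte marker, passed once total count was a covariate. The slopes of all 8 leukocyte genes on ATP1B3 were below 0, with a median of -0.73. Over all 12309 genes the median Spearman's rho with ATP1B3 was -0.076, and the share with a slope below 0 is not given here. Markers of 1 cell type can vary together, so these 8 slopes are not separate observations. Of the 11 pathway genes associated with ATP1B3, 7 had an unadjusted edgeR p under 0.05 on the leukocyte marker score, beside 17.6% of all genes. None had an adjusted p of at most 0.05. Of these 7, FXYD4, SLC9A3, KRT8, KRT18, DSP and CLDN3 had slopes below 0, for example -0.42 ± 0.17 (SE) for FXYD4 (edgeR adjusted p = 0.193), and FXYD3 a slope above 0. The 11 were picked by their association with ATP1B3, which itself had an unadjusted edgeR p of 0.019 on that score. Their share therefore cannot be compared with that of all genes. Whether leukocyte RNA had a part in the associations with ATP1B3 was not tested.

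Pool 31 carried much of the wider association. It had the highest levels of FXYD4 (1160 CPM), SLC9A3 (19.6 CPM), KRT8, KRT18, KRT19, DSP, CLDN3, CDX2 and HNF4A (69.2 CPM) and the lowest of F11R, CTNNA1 and POU5F1 (109 CPM), and it shared 0 reads of FXYD3 with pool 15. Without pool 31, 8 listed genes passed (2.19% of all genes), and CTNNA1, CDX2, HNF4A, FXYD3, POU5F1, TFAP2A and CLDN3 no longer did. FXYD4, SLC9A3, KRT8, KRT18, KRT19, EZR, DSP and F11R passed with and without it. When pool 33 was left out too, SLC9A3 and EZR no longer passed and 6 genes did (1.71% of all genes). Other single pools mattered as well: TFAP2A was also lost without pool 6, 12, 22, 23, 25, 28, 32, 35, 36, 41 or 42. EZR was lost without pool 12 or 13, and CLDN3 without pool 12 or 32. With edgeR in place of limma, CTNNA1, FXYD3, POU5F1 and TFAP2A did not pass, while CLDN4 did.

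**Figure D4:**
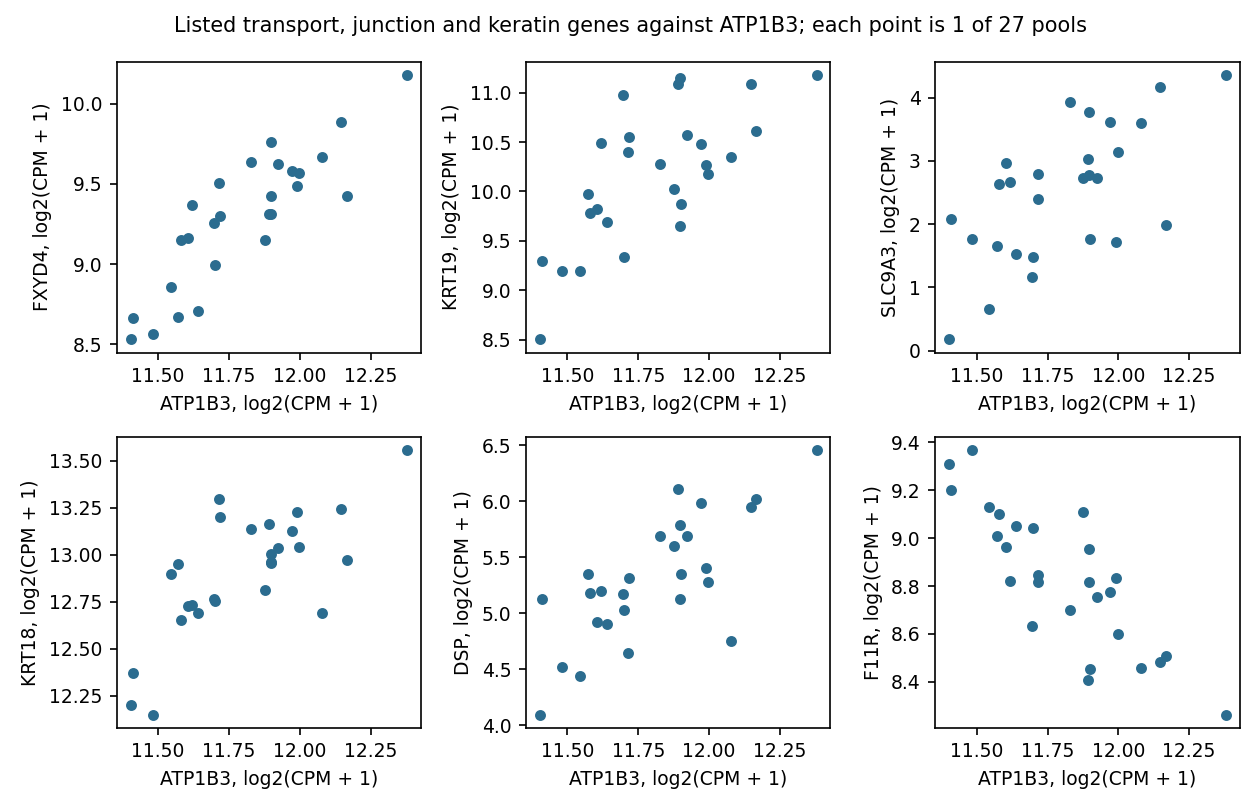
Levels of FXYD4, KRT19, SLC9A3, KRT18, DSP and F11R plotted against ATP1B3, all as log2(CPM + 1), with 1 point for each of the 27 pools. FXYD4 had a slope of 1.50 ± 0.17 (SE), KRT19 of 1.99 ± 0.36 and F11R of -0.99 ± 0.14, and the point farthest to the right in each panel is pool 31.

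Few listed genes followed the aquaporins. Along AQP3, 2.05% of all genes passed and 1 of the 68 listed genes did, MSN, which encodes the cytoskeletal linker moesin and rose by 0.87 ± 0.15 (SE) for each doubling of AQP3 (limma adjusted p = 0.00527). Along AQP11, 2.23% of all genes passed and 1 of 68 did, CTNNA1, which rose by 0.23 ± 0.06 (limma adjusted p = 0.0444). The call of CTNNA1 was lost in 12 of the 27 fits that left out 1 pool, with TMM scaling and with edgeR. The shares of all genes moved as well, for AQP3 to 0.171% with TMM scaling and 0.414% without pool 15, and for AQP11 to 0% without pool 31 and 0.0162% without pools 32 and 31.

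The genes whose level across the 27 pools was most like that of each retained member were ranked by Spearman's rho, as a description; all points share their libraries and depth. For ATP1B3 these were ACY1, an aminoacylase (rho 0.888), FXYD4 (0.861) and FADS3, of the fatty acid desaturase family (0.841), in a range of -0.828 to 0.888 over 12309 genes. For AQP3 they were LOC132342136 (0.811, median 1.15 CPM), the apoptosis effector BAK1 (0.808) and the histone demethylase KDM1A (0.804). For AQP11 values were lower, with the peptidase DPP4 (0.714) and the arginine methyltransferase PRMT3 (0.701).

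The last comparison asked whether the retained members followed 6 measures of a pool: the mean log2(CPM + 1) of trophectoderm, epiblast, hypoblast and leukocyte markers, summed interferon tau, and the total count. Pool 9 lay farthest from the median for the trophectoderm, epiblast, hypoblast and interferon tau measures. Slopes are log2 changes of the member per doubling of the measure, from edgeR's quasi-likelihood test over all 12310 retained genes. None of the 3 members passed an adjusted p of 0.05 for any measure with edgeR, DESeq2 or limma. At an unadjusted p under 0.05 there was 1 of 3 for interferon tau, 2 of 3 for leukocyte markers and 0 of 3 for the other measures. The matching shares of all genes were 16.3% for interferon tau, 17.6% for leukocyte markers, 21.0% for trophectoderm, 6.88% for epiblast and 14.0% for hypoblast markers, and 2.76% for total count. At the adjusted threshold, the share of all genes that passed was 4.87% for trophectoderm markers, 2.32% for interferon tau, 0.00812% for epiblast markers, 0.0325% for hypoblast markers, 1.52% for leukocyte markers and 0 for total count.

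On trophectoderm markers the slope was 0.32 ± 0.19 (SE) for ATP1B3 (edgeR adjusted p = 0.342), 0.26 ± 0.23 for AQP3 (0.526) and -0.30 ± 0.40 for AQP11 (0.704). The 95% interval for ATP1B3 ran from -4.94% to 64.8% per doubling. Without pool 9 the slopes were 0.63 for ATP1B3 (edgeR adjusted p = 0.281), 0.55 for AQP3 (0.441) and -0.38 for AQP11 (0.781). Among the listed pathway genes, TJP3 (slope 0.68 ± 0.18, edgeR adjusted p = 0.0266) and TJP1 (0.53 ± 0.15, 0.0374), scaffold proteins of tight junctions, rose with the trophectoderm markers, 2 of 17 junction genes beside 3.06% of all genes. Whether these 2 calls depend on pool 9 was not tested. The median slope of the 17 was 0.33, and no other pathway gene passed for any of the 6 measures with edgeR. Of the 39 pathway genes tested, 9 had an unadjusted p under 0.05 for trophectoderm markers, 1 for interferon tau, 1 for epiblast, 3 for hypoblast and 11 for leukocyte markers, and 1 for total count, to be read against the shares of all genes at that threshold given above.

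On interferon tau, a trophectoderm signal of pregnancy in ruminants whose summed level ran from 7.21 to 597 CPM, AQP3 had a slope of 0.10 ± 0.04 (SE; edgeR adjusted p = 0.213), or 7.07% per doubling with a 95% interval of 1.03% to 13.5%. ATP1B3 had a slope of -0.02 ± 0.04 (edgeR adjusted p = 0.806) and AQP11 of 0.07 ± 0.07 (0.664).

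On leukocyte markers, AQP11 had a slope of 0.62 ± 0.25 (SE; edgeR adjusted p = 0.192), or 53.9% per doubling with a 95% interval of 7.88% to 120%, ATP1B3 had a slope of -0.27 ± 0.11 (0.195) and AQP3 of -0.02 ± 0.15 (0.954). Pool 31 had the lowest leukocyte marker score. Without the 2 pools farthest in that score the slopes were 0.43 for AQP11 (edgeR adjusted p = 0.776) and -0.16 for ATP1B3 (0.854). Whether leukocyte RNA had a part in the level of AQP11 was not tested.

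On epiblast markers the adjusted p was 0.970 for ATP1B3, 0.956 for AQP3 and 0.978 for AQP11, and on hypoblast markers it was 0.671, 0.878 and 0.776 (edgeR). On total count the slopes were -0.05 ± 0.10 (SE), 0.10 ± 0.12 and 0.11 ± 0.23, each with an edgeR adjusted p of 1.000. Without the filter on low counts, none of ATP1B1, ATP1B2, AQP7 and AQP9 passed for any measure (24638 genes tested with edgeR), and ATP1B1 on leukocyte markers had a slope of 1.59 ± 0.64 (edgeR p = 0.0177, adjusted p = 0.153), the 1 of these 24 tests with an unadjusted p under 0.05, where 19.0% of all genes had one on that measure. In those fits the share of all genes that passed was 3.71% for trophectoderm markers, 3.72% for interferon tau, 2.01% for epiblast, 2.18% for hypoblast and 4.99% for leukocyte markers, and 2.28% for total count.

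**Figure D5:**
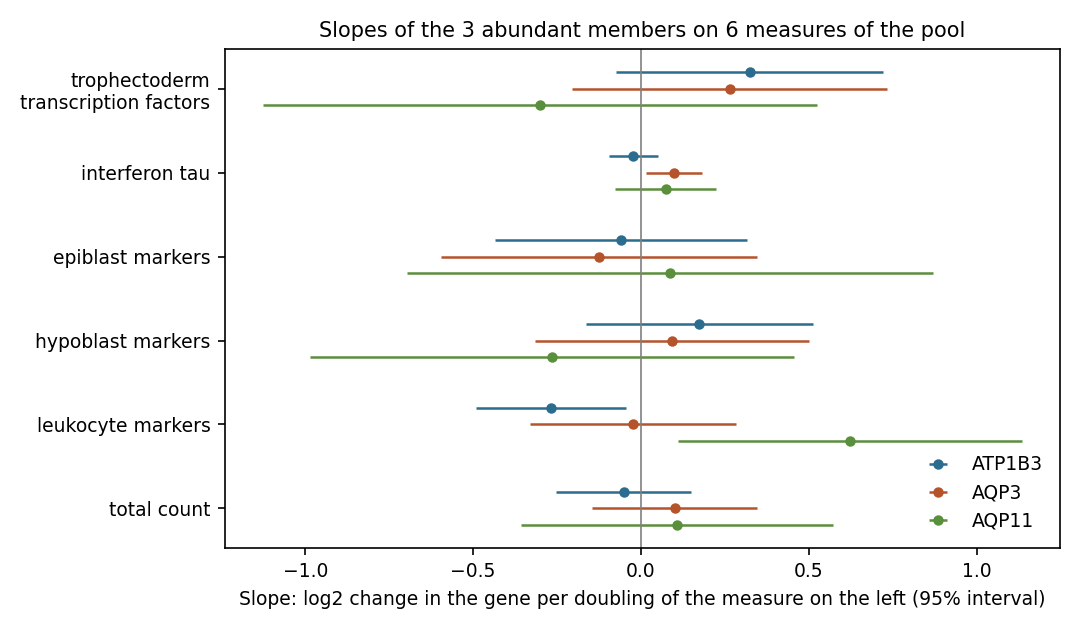
Slopes of ATP1B3, AQP3 and AQP11 on 6 measures of a pool, as log2 change per doubling of the measure from edgeR, with 95% intervals as bars. The intervals of AQP3 on interferon tau and of ATP1B3 and AQP11 on leukocyte markers lie off 0, and none passed an adjusted p of 0.05.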

How the data were processed

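The authors deposited raw counts of forward reads per gene and pool, made with fastp (trimming), STAR (alignment to the ARS-UCD2.0 assembly) and featureCounts. Tool versions, strand setting and treatment of multimapping reads are not given in the sources used here. Reverse transcription and amplification used a 3′ kit on RNA of 2 blastocysts per pool.

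CPM was computed from column totals of 10517606 to 44253564 counts. Of the deposited counts, those of the 12310 genes reaching 1 CPM in 12 or more pools were analysed with edgeR 4.0.16 (TMM factors 0.892 to 1.08, quasi-likelihood slope tests, Benjamini-Hochberg over all genes), with DESeq2 1.42.0, RLE scaling and limma 3.58.1 as alternatives. Fits on the level of a member used limma on log2(CPM + 1), with p-values adjusted over all retained genes. Correlations used 100000 permutations (scipy 1.17.1). Intervals and the floor of 3 counts cover counting error only. The edgeR step was tested on simulated data with less spread between pools than the median retained gene has (33.7%). That test does not show how the step performs at the spread of these data.

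Pools were treated as 1 group because the labels give no treatment, and nothing in the labels says which pools share a fertilisation replicate. All p-values therefore take the pools as independent. Pools that share a follicular fluid or a fertilisation replicate are not, so p-values may be too small and genes may vary together through it. The size of this effect was not tested. Gene positions came from RefSeq for ARS-UCD2.0, where 8 of 8 members matched by symbol. Members and gene lists were chosen with earlier results of these data known. Named genes were the members, the 3 genes most like each retained member, the 2 most abundant retained genes of each pathway list, and listed genes that passed a fit, of which those on the level of a member were chosen after their values were seen. Some genes that this rule names are not reported here.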

Additional observations from a re-analysis of the deposited data

How the results depend on the processing

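Of 135 slopes of the 3 retained members under other settings, 128 kept their direction, 7 turned and none passed the threshold. With summed rather than averaged markers, the slope of ATP1B3 on trophectoderm markers was -0.10, that of AQP11 on them 0.21 and that of ATP1B3 on hypoblast markers -0.022. Without the 2 farthest pools, AQP3 on hypoblast markers was -0.10 and ATP1B3 on total count 0.024. AQP3 on leukocyte markers was 0.048 with limma and 0.022 with total count as a covariate. The cause was not tested.

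Settings for the fits on the level of a member, and the omission of pool 9, were chosen after seeing the data. For ATP1B3, 6 listed genes passed without pools 31 and 33, against 12 with edgeR (11 of them shared with the 15) and 8 to 16 when each pool was left out in turn, with the lowest count without pool 31. For AQP3, 3 passed without pool 9 and 1 to 3 with each pool left out. For AQP11, 0 passed with TMM scaling, with edgeR and without pools 32 and 31, and 0 to 3 with each pool left out. Leaving out each pool gave r of -0.414 to -0.223 for ATP1B3 and AQP3 (permutation p under 0.05 without pool 32 alone), -0.543 to -0.284 for ATP1B3 and AQP11 (over 0.05 without pool 31 alone) and 0.249 to 0.458 for AQP3 and AQP11 (under 0.05 without pools 24, 32 and 46). Without the 2 farthest pools, ATP1B3 and AQP11 gave r of -0.366.

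Ordered by the mean in place of the median, 4 of 8 members kept their place: AQP7 passed above ATP1B1 and ATP1B2 above AQP9. The order per kilobase was not run, since the reference used here gave no transcript length. No paired analysis was possible because the labels give no groups to pair. Low counts in each pool limit what can be said of ATP1B1, ATP1B2, AQP7, AQP8 and AQP9. So does the annotation of their 3′ ends, which was not tested, and for ATP1B1 its overlap with NME7.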
